A study of Mus musculus with 8 samples.

Results

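Hemoglobin genes and Alas2 were followed in whole-retina RNA of 4 Rbfox2 KD and 4 control mice, 1 library per mouse. They were chosen by symbol: Hba-a1, Hba-a2, Hbb-bs, Hbb-bt and Alas2 were looked up among the 17500 genes of the deposited count table, and 2 of the 5, Hba-a2 and Alas2, had a row under that name. Hba-a1, Hbb-bs and Hbb-bt were not analysed here. A further row, named Hbb-b1 and described as the adult major beta chain on chromosome 7, is given beside them: its transcript accession belongs to Hbb-bt in the RefSeq table of GRCm38.p6, while its gene number belongs to Hbb-b1 there, so that its counts stand for an adult beta globin gene without saying which.

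All mice were on the C57BL/6J background and 6 months old. The Rbfox2 KD mice (M893, M901, M902 and M909) carried Rbfox2 fl/fl and a transgene for a tamoxifen-dependent Cre recombinase that is made in many tissues, so that deletion was not limited to the retina. The controls (M833, M894, M896 and M898) were heterozygous Rbfox2 fl/+ mice of the same age. The labels give tamoxifen treatment for 4 months for all 8 libraries, controls included. The study's methods describe tamoxifen only for Rbfox2 fl/fl mice with the transgene, as a short course on consecutive days in adult animals. By the paper, the Rbfox2 KD mice were used 4 months after this induction. Perfusion of the animals before dissection was not stated in the sources used here.

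Adult hemoglobin is a tetramer of alpha chains, encoded by Hba-a1 and Hba-a2, and beta chains, encoded in C57BL/6 mice by Hbb-bs and Hbb-bt, each chain holding a heme group. Maturing red cells keep globin mRNA after they lose their nucleus, so that blood left in the vessels of a dissected tissue brings globin transcripts with it. Alas2 is the X-linked erythroid form of 5-aminolevulinate synthase, which starts heme synthesis in red cell precursors, and Alas1 is the form used by other tissues.

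The 2 alpha genes and the 2 beta genes are near copies, and only uniquely mapped reads entered the table. In GENCODE M21 on GRCm38, Hba-a2 lies on the plus strand at chr11:32296489-32297298 and Hba-a1 at chr11:32283511-32284465. Hbb-bt lies on the minus strand at chr7:103812524-103813996 and Hbb-bs at chr7:103826534-103828096, and each of the 4 globin genes has 3 exons. Alas2 lies on the plus strand at chrX:150547375-150570638, with 11 exons. The coding sequences of Hba-a2 and Hba-a1, 429 bases each with the stop codon, differed at 1 base (T381C, Hba-a2 first, counted from the A of the start codon). Those of Hbb-bt and Hbb-bs, 444 bases each, also differed at 1 base (T417C, Hbb-bt first). The 60 coding bases that hold each difference are shown because this base is all that tells the coding sequences of a pair apart. The differing base is in capitals.
Hba-a2: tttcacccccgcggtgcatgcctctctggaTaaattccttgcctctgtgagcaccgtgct
Hba-a1: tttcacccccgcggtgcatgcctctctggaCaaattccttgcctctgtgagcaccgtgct
Hbb-bt: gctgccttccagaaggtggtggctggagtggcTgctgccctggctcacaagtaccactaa
Hbb-bs: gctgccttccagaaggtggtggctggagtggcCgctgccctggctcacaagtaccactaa

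Of the 405 windows of 150 bases, the length of 1 read, in the Hba-a2 transcript, 266 (65.7%) were also found in Hba-a1. Of the 554 windows in the Hbb-bt transcript, 281 (50.7%) were also found in Hbb-bs. None of the 1888 windows of Alas2 was found in another gene. Counts on the globin rows can therefore miss the fragments that fall within shared windows, whereas no window of Alas2 was shared. How many fragments were lost was not tested.

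Total gene counts were 174224661 to 211283591 in the control libraries and 160630226 to 195100610 in the Rbfox2 KD libraries. Levels are given as CPM, the count relative to a library size scaled by TMM (trimmed mean of M values), which makes libraries of different depth comparable. A count of 3, taken as the detection floor, corresponded to between 0.0144 and 0.0189 CPM, and intervals and floors cover counting error only. Rbfox2 had 143.8 to 156.8 CPM in the controls and 53.6 to 59.4 CPM in the Rbfox2 KD retinas, which set every library on the side of its label. The retina markers, led by rhodopsin, summed to between 57650 and 64120 CPM in the 8 libraries. Xist, the transcript of the inactive X chromosome, was counted 277506 times in M901, 275967 times in M902 and 312 to 426 times in the others. M901 and M902 thus stand apart within the Rbfox2 KD group, and the main results that touch them are also given without both. The labels give no sex. No control had Xist at this level, so that the groups were not balanced for whatever it marks.

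Globin counts were low in every retina, at 0 to 11 a row. Hba-a2, an alpha chain gene, had 1, 5, 1 and 8 counts in M833, M894, M896 and M898, the controls. In the Rbfox2 KD retinas M893, M901, M902 and M909 it had 9, 0, 2 and 8 counts. Low and high retinas occurred in both groups, and the groups overlapped. The mean level was 0.0209 ± 0.0196 CPM (SD, n = 4) in controls and 0.0264 ± 0.0240 CPM (SD, n = 4) in Rbfox2 KD retinas. Rbfox2 KD against control gave a log2 fold change of 0.37 with a standard error of 0.94 (edgeR quasi-likelihood test without the count filter, adjusted p = 0.904), and it turned negative, to -0.14, without M893, was 1.06 without M898 and was 1.17 without M901 and M902.

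The beta globin row Hbb-b1 had 7, 7, 6 and 10 counts in the controls, in the same order. It had 11, 0, 8 and 4 counts in the Rbfox2 KD retinas. The controls lay close together, and the Rbfox2 KD retinas reached both above and below them. The mean level was 0.0403 ± 0.0114 CPM (SD, n = 4) in controls and 0.0334 ± 0.0284 CPM (SD, n = 4) in Rbfox2 KD retinas. Its log2 fold change was -0.29 with a standard error of 0.71 (edgeR quasi-likelihood test without the count filter, adjusted p = 0.901), and it turned to 0.14 without M901, the library with no count on either globin row, and to 0.038 without M901 and M902.

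With both globin rows added, the controls held 8, 12, 7 and 18 fragments and the Rbfox2 KD retinas 20, 0, 10 and 12. As a share of each library, in CPM by the raw total without TMM scaling, this was 0.0369 to 0.103 CPM in controls and 0 to 0.115 CPM in Rbfox2 KD retinas, with a median of 0.0622 CPM over the 8 retinas. The 0 in M901 lay under the floor of 3 counts, which was 0.0154 CPM in its total of 195100610. The exact Poisson intervals (95%) of the highest library, M893, reached from 0.0700 to 0.177 CPM, and those of the control M833 from 0.0164 to 0.0746, and the intervals of all retinas other than M901 overlapped with each other. The upper end of the Poisson interval of M901, 0.0189 CPM, lay below the intervals of M894, M898, M893, M902 and M909. Hba-a2 and Hbb-b1 both failed the count filter and 0 of the 2 passed an FDR of 0.05 without it, where 0.0629% of all genes did.

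**Figure D1:**
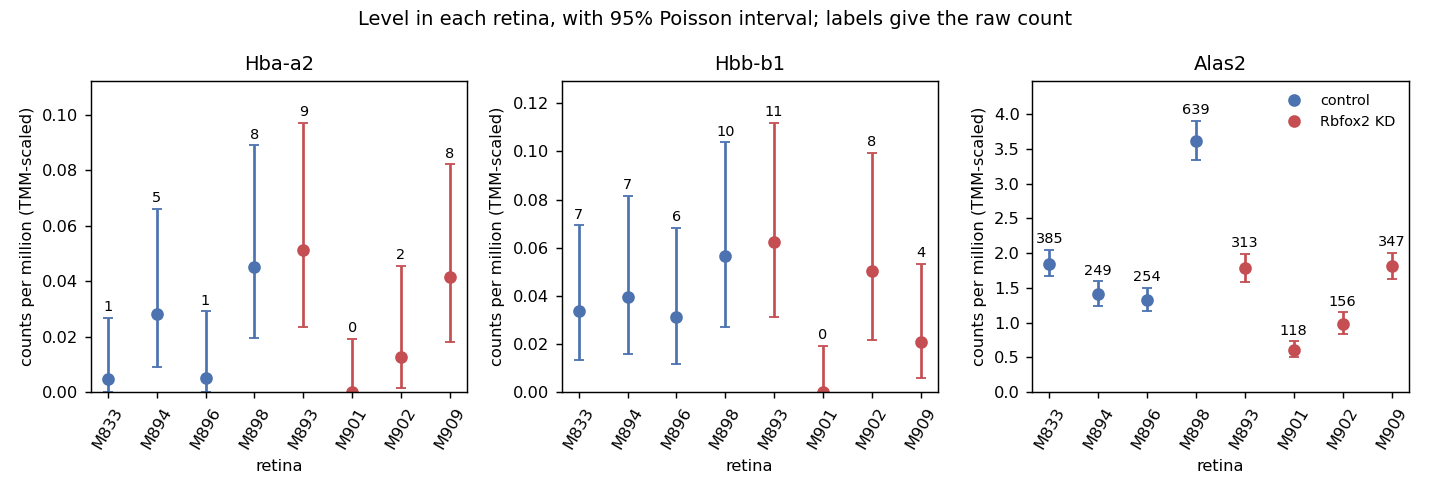
CPM by TMM-scaled library size (vertical axes, linear, from 0) for Hba-a2, Hbb-b1 and Alas2 in each retina, with exact Poisson intervals (95%) as bars and the raw count above each; blue points are controls and red points Rbfox2 KD. The globin rows hold 0 to 11 counts with wide intervals, while Alas2 reaches 639 counts in the control M898 and falls to 118 in M901.

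Alas2 was counted far more often and varied between retinas by more than counting error. It had 385, 249, 254 and 639 counts in M833, M894, M896 and M898. It had 313, 118, 156 and 347 counts in M893, M901, M902 and M909. The control M898 stood above all other retinas, at 3.61 CPM with a Poisson interval of 3.33 to 3.90. M901 and M902, the libraries with Xist, were the lowest, at 0.612 CPM (0.507 to 0.733) and 0.983 CPM (0.835 to 1.15). The remaining 3 controls, at 1.33 to 1.85 CPM, overlapped with M893 and M909, at 1.78 and 1.81 CPM.

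The mean level of Alas2 was 2.05 ± 1.07 CPM (SD, n = 4) in controls and 1.30 ± 0.595 CPM (SD, n = 4) in Rbfox2 KD retinas. Alas2 gave a log2 fold change of -0.66 with a standard error of 0.40 (edgeR quasi-likelihood test, adjusted p = 0.508), which did not pass the threshold, whereas 0.0655% of the 16797 genes that passed the count filter did. The difference shrank to -0.24 without M898, to -0.43 without M901 and to -0.19 without M901 and M902. Its size thus rested on the highest control and on the libraries with Xist, both of which are Rbfox2 KD.

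Among the 3 rows the enzyme was above the globins per unit of length. Windows of the globin transcripts were shared within each pair, whereas no window of Alas2 was shared. The globin values can thus be too low, by an amount that was not tested. On the deposited FPKM scale, which divides by transcript length, Alas2 had a median of 0.813 (range 0.306 to 1.85), Hbb-b1 a median of 0.0580 (0 to 0.0998) and Hba-a2 a median of 0.0365 (0 to 0.0915). Alas2 was above both globin rows in 8 of 8 retinas. In the retinas with more than 3 counts of the globin row, the Alas2 FPKM was between 9.89 times and 22.7 times that of Hba-a2 and between 6.22 times and 27.7 times that of Hbb-b1. Alas2 was above 24.9% of the genes of the table by median FPKM, Hbb-b1 above 6.91% and Hba-a2 above 4.75%. By FPKM Hbb-b1 was above Hba-a2 in M833, M894, M896, M898, M893 and M902 and below it in M909, while M901 held 0 for both. The difference between these rows was not tested.

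**Figure D2:**
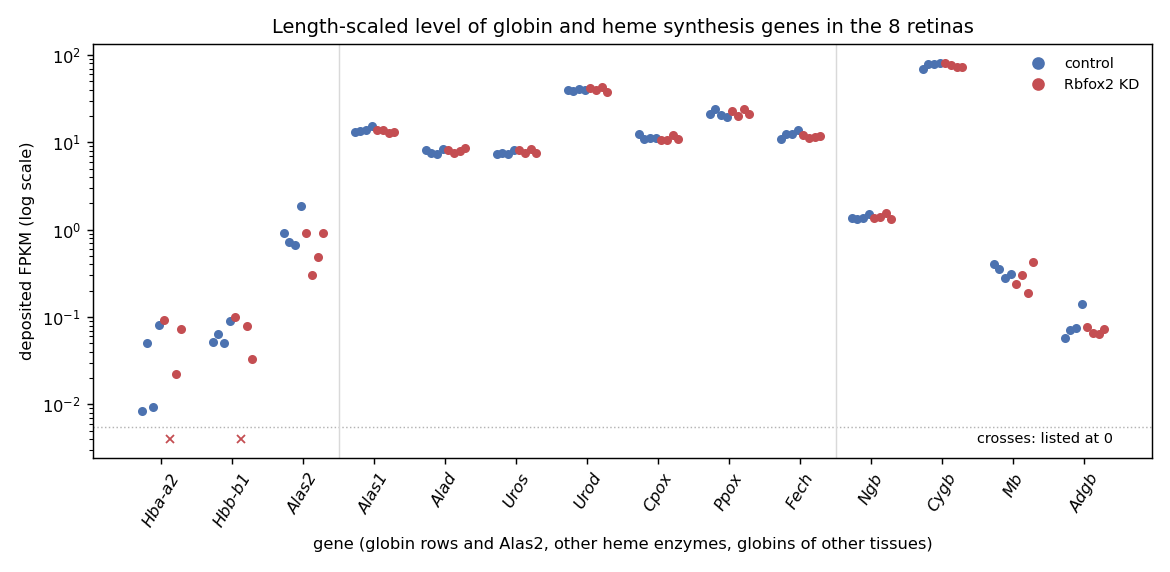
Deposited FPKM on a log axis (vertical) for the globin rows and Alas2, other enzymes of heme synthesis, and the globins of other tissues; each point is 1 retina, blue for control and red for Rbfox2 KD, and crosses mark values listed at 0. Alas2 lies between the globin rows, all under 0.1, and Alas1, at 12.9 to 15.6.

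Whether the members rose and fell together from retina to retina was examined for 3 pairs, as the correlation of log2(CPM + 0.5) over 8 retinas. Hba-a2 and Alas2 had the highest Pearson r, 0.679 (two-sided exact permutation p = 0.0535, adjusted p = 0.12), with a Spearman rho of 0.524 (exact permutation p = 0.197, adjusted p = 0.295). Hba-a2 and Hbb-b1 had an r of 0.593 (exact permutation p = 0.12, adjusted p = 0.12) and a rho of 0.714 (exact permutation p = 0.0576, adjusted p = 0.173). Hbb-b1 and Alas2 had an r of 0.603 (exact permutation p = 0.113, adjusted p = 0.12) and a rho of 0.381 (exact permutation p = 0.36, adjusted p = 0.36). None of the 3 passed the threshold.

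Without the 2 retinas farthest from the median of the first gene, r was 0.532 for Hba-a2 and Alas2, 0.182 for Hba-a2 and Hbb-b1 and 0.281 for Hbb-b1 and Alas2. Without M901 and M902 it was 0.482, 0.536 and 0.481. Within the 4 controls r was 0.725 for Hba-a2 and Alas2, 0.951 for Hba-a2 and Hbb-b1 and 0.9 for Hbb-b1 and Alas2. Within the 4 Rbfox2 KD retinas it was 0.98, 0.58 and 0.554. The retina with most Alas2, M898, also had the most globin among the controls, and the retina with least Alas2, M901, had none. Other retinas did not follow this order. M893 had the most globin of all, 20 fragments, at 1.78 CPM of Alas2. M902, at 0.983 CPM of Alas2, had 10 globin fragments, against 8 in M833 and 7 in M896, which had more Alas2. With 0 to 11 counts a row, the correlations of the globin rows carry large counting error.

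Further genes of the red cell lineage were read from a list. In whole tissue, fewer cells of a type and less RNA per cell cannot be told apart. Of 30 listed erythroid genes 16 had a row, and 14 of these passed the count filter. None passed an FDR of 0.05 by edgeR's quasi-likelihood test. By edgeR's likelihood ratio test 1 passed it, among 164 genes over the whole table. By DESeq2, which called 465 genes over the whole table, 0 passed, but it gave no adjusted p for Car1 and Slc4a1. Listed genes with fewer counts than Car1, such as Gata1, may also not have been assessed by it. At an unadjusted p under 0.05, 2 of the 14 were lower in Rbfox2 KD, against 6.87% of all genes tested, and 0 were higher, against 6.42%. The median log2 fold change of the list was 0.0029, beside 0.0016 over all genes.

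The genes lower at that level were Car1 and Slc4a1. Car1, the carbonic anhydrase abundant in red cells, had 41, 37, 31 and 32 counts in M833, M894, M896 and M898 and 13, 18, 15 and 19 counts in M893, M901, M902 and M909. Every Rbfox2 KD retina lay below every control, which was also true of 3.39% of all genes tested. Car1 gave a log2 fold change of -1.05 with a standard error of 0.24 (edgeR quasi-likelihood test, adjusted p = 0.156), and between -1.11 and -0.96 when any single retina was left out. It was -1.11 without M901 and M902, so that the size did not rest on those libraries. The adjusted p fell under the threshold only by edgeR's likelihood ratio test, at 0.0335. DESeq2 gave Car1 an unadjusted p of 0.00618 and no adjusted p.

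Slc4a1, the band 3 anion exchanger of the red cell membrane, had 20, 17, 14 and 18 counts in the controls and 4, 8, 7 and 14 counts in the Rbfox2 KD retinas. Control levels were 0.0731 to 0.102 CPM and Rbfox2 KD levels 0.0227 to 0.0729 CPM. The groups did not overlap, but M896 and M909, with 14 counts each, were separated by less than 1 count. Slc4a1 gave a log2 fold change of -0.996 with a standard error of 0.38 (edgeR quasi-likelihood test, adjusted p = 0.316), and -0.91 without M901 and M902. Over the 8 retinas, which share their libraries, the Pearson correlation with Alas2 was 0.414 for Car1 and 0.553 for Slc4a1, beside a median of 0.238 over the 16 erythroid genes with a row.

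The transcription factors of the lineage lay on both sides of 0, and none passed the threshold. Klf1, an activator of adult beta globin, had 35 to 69 counts in controls and 36 to 67 in Rbfox2 KD retinas (log2 fold change 0.20, edgeR adjusted p = 0.80). Gata1, a regulator of erythroid and megakaryocyte genes, had 15, 9, 6 and 1 counts in the controls and 9, 18, 13 and 16 in the Rbfox2 KD retinas (log2 fold change 0.92, edgeR adjusted p = 0.482). Its lowest count, 1, was in M898, the retina with most Alas2. Tal1 had 58 to 80 and 49 to 99 counts (log2 fold change -0.05, edgeR adjusted p = 0.956). Nfe2, a factor of erythroid and megakaryocyte cells below the count filter, had 25 counts over the controls and 16 over the Rbfox2 KD retinas (log2 fold change -0.61, edgeR adjusted p = 0.762 without the filter).

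Several genes of the list were at levels that the globin rows did not approach. Sptb, the beta spectrin of red cells that is also made in other tissues, was at 288.6 ± 17.7 CPM (SD, n = 4) in controls and 289.1 ± 15.7 CPM (SD, n = 4) in Rbfox2 KD retinas. Bpgm, which makes 2,3-bisphosphoglycerate, was at 70.3 ± 2.87 and 70.5 ± 2.99 CPM. Slc25a37, a mitochondrial iron importer, was at 36.3 ± 3.54 and 38.8 ± 3.47 CPM.

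**Figure D3:**
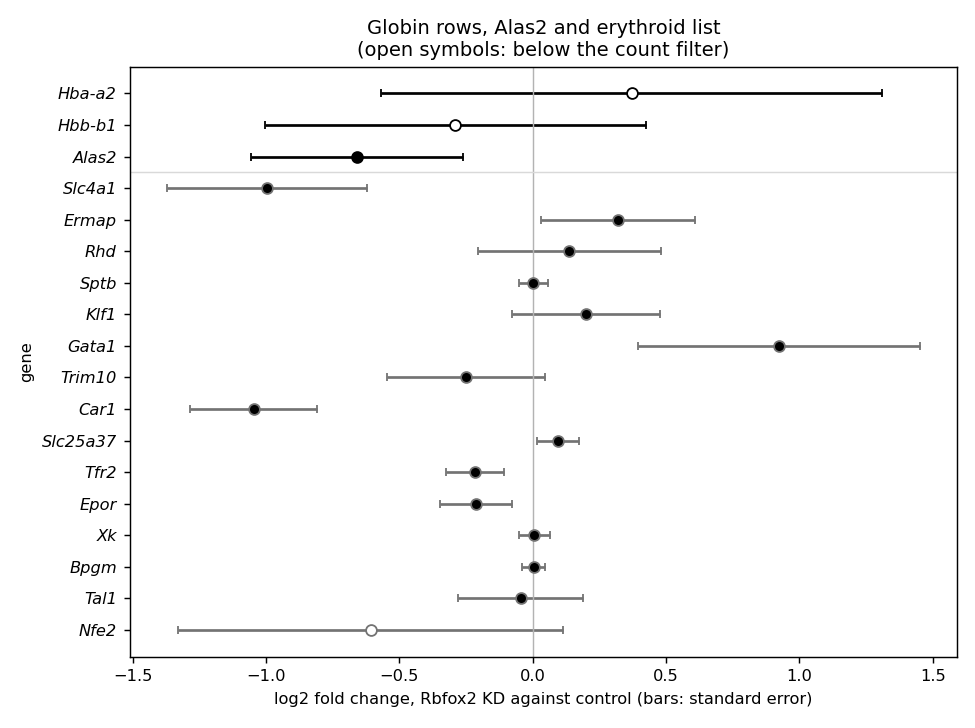
Log2 fold change of Rbfox2 KD against control (horizontal axis) with standard errors as bars, for the globin rows and Alas2 above the line and erythroid genes below it; open symbols are genes below the count filter, read from the fit without it. Car1 at -1.05 and Slc4a1 at -0.996 are the genes of the erythroid list with an unadjusted p under 0.05 (edgeR quasi-likelihood test). By this test none passed an FDR of 0.05.

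The other enzymes of heme synthesis were read from a list of 8. All 8 were tested, and 0 passed an FDR of 0.05 by edgeR's quasi-likelihood or likelihood ratio test or by DESeq2. At an unadjusted p under 0.05, 1 of the 8 was higher in Rbfox2 KD, against 6.42% of all genes tested, and 0 were lower. Alas1 was at 37.4 ± 2.65 CPM (SD, n = 4) in controls and 36.3 ± 1.27 CPM (SD, n = 4) in Rbfox2 KD retinas, and its FPKM of 12.9 to 15.6 exceeded that of Alas2 in every retina. Fech, which inserts iron into the ring, was at 36.0 ± 2.92 and 34.0 ± 0.917 CPM.

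Among genes that clear hemoglobin and heme or store iron, 0 of 13 tested passed an FDR of 0.05 by either edgeR test or by DESeq2. Of the 13, 1 was lower at an unadjusted p under 0.05, against 6.87% of all genes, and 0 were higher. This was Cd163, the macrophage receptor for hemoglobin bound to haptoglobin, with 79, 112, 134 and 136 counts in M833, M894, M896 and M898 and 71, 2, 4 and 25 counts in M893, M901, M902 and M909. The lowest values were in the libraries with Xist, and M893 overlapped with the controls. Cd163 gave a log2 fold change of -2.12 with a standard error of 0.75 (edgeR quasi-likelihood test, adjusted p = 0.286), and it was -1.22 without M901 and M902, -3.45 without M893 and -3.16 by limma-voom. Hmox1, the inducible heme oxygenase, was at 3.42 ± 0.329 CPM in controls and 3.22 ± 0.535 CPM in Rbfox2 KD retinas. The ferritin chains Fth1 and Ftl1 were at 633 ± 29.0 and 594 ± 13.96 CPM for Fth1 and at 142.5 ± 13.2 and 131 ± 5.28 CPM for Ftl1.

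The globins made by tissues other than blood were above the hemoglobin rows, except androglobin. The hemoglobin rows can miss fragments in shared windows, as described above. Cygb, cytoglobin, had an FPKM of 69.9 to 81.5, and Ngb, the neuronal neuroglobin, 1.32 to 1.55, whereas the hemoglobin rows stayed under 0.1 in all 8 retinas. Cygb was at 179.5 ± 9.65 CPM in controls and 177.5 ± 8.33 CPM in Rbfox2 KD retinas, and Ngb at 2.23 ± 0.133 and 2.28 ± 0.174 CPM (SD, n = 4 each). Mb, myoglobin, and Adgb, androglobin, were at an FPKM of 0.189 to 0.426 and 0.0581 to 0.141. By edgeR 0 of the 4 passed an FDR of 0.05 and 0 of the 4 had an unadjusted p under 0.05, and DESeq2 called 0.

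Marker lists of other blood cells were read beside the globin rows. Of 12 neutrophil genes 5 had a row, of 12 platelet genes 10, of 14 lymphocyte genes 6 and of 8 monocyte genes 6. By either edgeR test and by DESeq2, 0 passed an FDR of 0.05. DESeq2 gave no adjusted p for Car1, with 141 counts over the controls and 65 over the Rbfox2 KD retinas. Some genes of these lists had fewer, such as Pf4 with 95 and 41. The 0 by DESeq2 can therefore include genes that it did not assess. After the filter 4 neutrophil, 6 platelet, 6 lymphocyte and 5 monocyte genes were tested. At an unadjusted p under 0.05, 1 of the 5 monocyte genes was higher, against 6.42% of all genes, and 2 were lower, against 6.87%. In the other 3 lists 0 genes passed. Without M901 and M902, 3 of 5 neutrophil genes were higher at that level, as were 606 of the 17088 genes tested. There, 1 of 6 monocyte genes was higher and 0 were lower, and 0 platelet or lymphocyte genes passed. With all 8 retinas, the log2 fold changes of all 4 neutrophil genes tested were positive, as were those of 8509 of 16797 genes. The neutrophil median was 0.848, and it was 0.173 without M909 and 1.81 without M901 and M902. S100a8, a granule protein of neutrophils, had 2 to 24 counts in controls and 4 to 43 in Rbfox2 KD retinas, and Ltf, lactoferrin, had 193 counts in M909 and 8 to 35 elsewhere. S100a9, the partner of S100a8, was below the filter, with 11, 7, 4 and 1 counts in the controls and 27, 37, 2 and 51 in M893, M901, M902 and M909. M902 overlapped with the controls and the others lay above them. S100a9 gave a log2 fold change of 2.36 with a standard error of 0.75 (edgeR quasi-likelihood test without the filter, unadjusted p = 0.0105, adjusted p = 0.269), and 2.77 without M901 and M902 (adjusted p = 0.486). Pf4, a platelet chemokine, had 14 to 32 counts in controls, 23 and 18 in M893 and M909, and 0 in M901 and M902. Summed over their lists, platelet genes were at 29.8 to 46.9 CPM in controls and 15.1 to 40.9 CPM in Rbfox2 KD retinas, with M901 and M902 lowest. F5, coagulation factor V, accounted for 15.03 to 33.1 CPM of it in controls and 2.12 to 26.1 CPM in Rbfox2 KD retinas. The platelet sum was 36.6 CPM in M893 and 40.9 CPM in M909, both between the lowest and the highest control. Pf4 gave a log2 fold change of -0.19 and F5 one of 0.09 once M901 and M902 were left out.

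The retinas at the extremes of Alas2 were also at the extremes of most listed genes from tissue that borders the retina. Of 11 genes of the pigment and ciliary epithelium 8 were highest in M898 and 9 were lowest in M901 or M902. Both held for 7. Over the 16797 genes tested 2824 were highest in M898, 4622 lowest in M901 or M902 and 1397 both. The listed genes not highest in M898 were Rpe65 and Ttr, highest in M909 at 20.1 and 90.6 CPM, and Best1, highest in M896 at 1.48 CPM. Rpe65, Ttr and Best1 had correlations with Alas2 of 0.367, 0.199 and 0.169. The median Pearson correlation of these 11 genes with Alas2 was 0.754, beside -0.0208 over all genes, a description over 8 retinas that share their libraries, and it was 0.562 without M901 and M902, beside 0.0158. Dct, an enzyme of melanin synthesis, had 1993, 17914, 3757 and 39599 counts in M833, M894, M896 and M898 and 7956, 921, 1021 and 3447 counts in M893, M901, M902 and M909. The highest count was thus in M898 and the lowest were in M901 and M902, and the log2 fold change of -2.25 (edgeR adjusted p = 0.368) was -1.49 without both and -1.22 without M898. The list summed to between 274.3 and 665.7 CPM in controls and between 232.3 and 333.4 CPM in Rbfox2 KD retinas. Its markers were present in every library, and their part in the Alas2 difference was not tested.

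At an unadjusted p under 0.05, 4 of the 11 pigment and ciliary genes were lower in Rbfox2 KD (6.87% of all genes were), and 1 of 11 without M901 and M902, where the share over all genes was 2.46%. The list holds Best2 and Slc13a4, which the paper had reported as downregulated from these libraries. Best2 was among the 4, so that this count is not independent of the paper's result. Of 10 genes of pericytes and smooth muscle 5 were lower at that level, and 1 without M901 and M902. Tagln, an actin-binding protein of smooth muscle, was at 3.23 CPM in M898, at 0.975 and 1.09 CPM in M901 and M902, and between 1.68 and 1.94 CPM in the others, with a log2 fold change of -0.61 (edgeR adjusted p = 0.371) and of -0.28 without M901 and M902. Of 12 endothelial genes 4 were lower, and 1 without M901 and M902. None of the genes of these lists passed an FDR of 0.05 by edgeR's quasi-likelihood test, while its likelihood ratio test called 1 endothelial gene among 164 genes over the whole table, and DESeq2 called 1 endothelial and 1 pericyte gene among 465. The genes of pericytes and smooth muscle and of endothelium had a median correlation with Alas2 of 0.516 and 0.392, and of 0.166 and 0.0935 without M901 and M902.

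**Figure D4:**
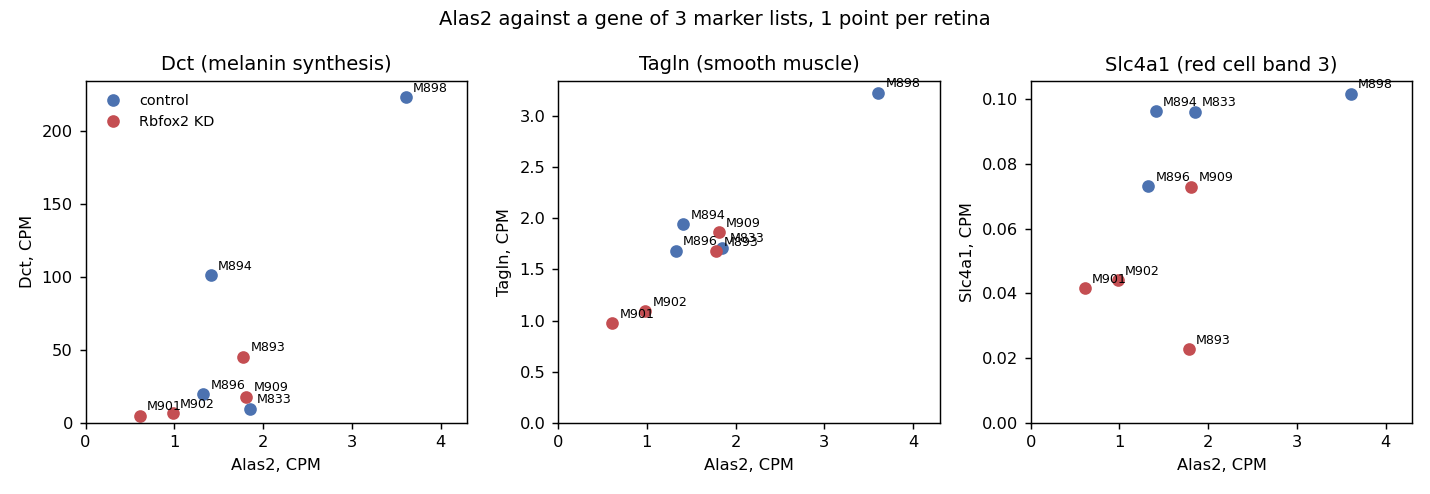
Alas2 (horizontal axes) against Dct, Tagln and Slc4a1 (vertical axes), all in CPM on linear axes from 0, with 1 labelled point per retina, blue for control and red for Rbfox2 KD. M898 is at the upper right and M901 and M902 at the lower left for Dct and Tagln, whereas M893, with 1.78 CPM of Alas2, is lowest for Slc4a1.

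The genes most like the members across retinas were read from all 16797 tested genes by the Pearson correlation of log2(CPM + 0.5), as a description. For the summed globin rows the 10 highest included Nadsyn1 (r = 0.947), Ech1 (0.942), Maats1 (0.907), Tmem223, AB124611, Hmga2-ps1, Tcte1, Gimap5 and Rmdn2 (0.878), and the 5 lowest were Rptor (-0.963), Edil3, Pitpnc1, Sipa1l3 and Camk1d (-0.9). No gene of the erythroid list was among them. The median over all genes was -0.0041.

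For Alas2 the highest were Ccnd3, cyclin D3 (r = 0.978), D030025P21Rik (0.966), Tmem51 (0.963), Cml3 (0.962), Rhog (0.96) and Dapl1 (0.956). An r of 0.9 or more was reached by 68 genes for Alas2 and by 3 genes for the summed globin rows. Ccnd3 was at a median of 60.1 CPM with a log2 fold change of -0.03, and its r without M901 and M902 was 0.971. These genes were named for their r alone, and nothing is drawn from their functions.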

How the data were processed

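RNA of 8 whole retinas was sequenced after poly(A) selection. The authors used STAR on mm10 and took uniquely mapped fragments into HTSeq counts (RefSeq and Ensembl are both named as the annotation, and strand is not given in the sources used here); the processing notes add CASAVA 1.8.2 and edgeR. The deposited counts are not normalized, and every gene had at least 5 counts in at least 4 retinas. The deposited FPKM values of the authors divide by length and depth and served to compare genes. The authors' fold changes, p-values and adjusted signal were not used.

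Counts were filtered with filterByExpr (16797 of 17500 genes kept), scaled by TMM and compared by quasi-likelihood F tests in edgeR 4.0.16 (R 4.3.3), without covariates, p-values being Benjamini-Hochberg adjusted over all genes tested. Hba-a2 and Hbb-b1 failed the filter, so that their values come from the same fit on all 17500 genes. With 3 rows in place of 5 genes, 3 pairs were correlated and the globin share covers 2 rows. Alternatives were the likelihood ratio test, limma-voom (limma 3.58.1), DESeq2 1.42.0, RLE scaling, other filters and left-out retinas. The code was tested on simulated data. Precision is limited by counting for the globin rows, with 0 to 11 counts, and by 4 retinas per group otherwise.

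The members and the gene lists were chosen with earlier results of these data known. Named are the members, erythroid genes with counts in all 8 retinas, up to 4 genes of each other list by lowest p or highest level, and the genes most and least correlated with the summed globin rows. The likeness to Alas2, and Dct, Rpe65, Ttr, Best1, Best2, Slc13a4, Tagln, Pf4, Ltf, F5, Hmox1, Mb, Adgb and Fech fall outside this rule or were chosen after their values were seen. Some genes that fall under this rule are not reported here. Sequences and positions are from GENCODE M21 (GRCm38).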

Additional observations from a re-analysis of the deposited data

Results flagged for a closer look

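Of 62 groups of 4 retinas examined for the globin rows, Alas2, the erythroid genes and the summed marker lists, 3 had 1 retina far from the others, and chance flags about 1 in 20 groups, here 3.1. Ermap, an erythroid membrane protein gene, was at 0.718 CPM in the control M894 and between 0.496 and 0.505 CPM in the other controls. Sptb was at 262.5 CPM in the control M833 and between 293.5 and 299.8 CPM in the other controls, a gap of 0.83 of the range and just past the limit. The summed level of the genes for heme and hemoglobin clearance and iron was 1752 CPM in the Rbfox2 KD retina M909 and between 1481 and 1511 CPM in the other Rbfox2 KD retinas. No globin row and no group of Alas2 values was set apart by this rule.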

How the results depend on the processing

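The log2 fold change of Hba-a2 kept its direction in 13 of 14 alternatives and turned to -0.14 without M893, with a range of -0.14 to 1.06 when each retina was left out. That of Hbb-b1 kept its direction in 12 of 14, turned to 0.14 without M901 and to 0.038 without M901 and M902, and ranged from -0.80 to 0.14 with each retina left out. A filter of at least 10 counts in every retina leaves neither row, and DESeq2 gives no adjusted p for them. Alas2 stayed negative and over the threshold in 16 of 16 alternatives, between -0.87 and -0.24 with each retina left out. The correlations stayed on their side of the threshold in 12 of 12 alternatives each, and the median globin share moved by less than the spread between retinas in 9 of 9. The number of genes called over the whole table was 11, and it was 164 by the likelihood ratio test, 465 by DESeq2, 1 without M901 and M902 and between 5 and 35 with each retina left out; the cause was not tested. Car1 passed the threshold only by the likelihood ratio test, and DESeq2 gave no adjusted p for Car1 or Slc4a1. The alternatives for Car1 were chosen after seeing the data, as were those given for Slc4a1, Cd163, Dct, Tagln, Pf4, F5, S100a9 and the marker lists. No paired analysis was possible because the groups share no replicate number. Depth limits the globin rows: 3 counts are at most 0.0189 CPM.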
